A study of Mus musculus with 2 samples.

Results

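The 36 genes described here encode proteins of the nucleolus and of ribosome assembly, and they were taken by symbol from the 32285 genes listed in both count matrices. They comprise 5 abundant nucleolar proteins, 3 subunits of RNA polymerase I, 3 proteins of the box C/D particle, 4 of the box H/ACA particle, 10 factors of the small ribosomal subunit and 11 of the large one. All 36 are annotated as protein-coding in GRCm38.

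The measurements are single-cell RNA sequencing of lungs from wild-type C57BL/6 mice, taken 6 h after an injection into the tail vein. Control mice received phosphate-buffered saline, and the other mice received 400000 B16-F10 cells, a mouse skin melanoma line, in 100 microlitres of saline. The labels give 2 mice per treatment, while the study's methods give another number of mice pooled per sample. The sort took Pecam1-positive cells, Pecam1 being a marker of endothelium, that lacked the leukocyte marker Ptprc. Melanoma cells carrying a green dye were added from the injected lungs. Each treatment was 1 library of pooled cells, so no value below has a replicate error and no test was possible. Ratios compare 2 libraries, and intervals in parentheses are 95% intervals that cover counting error only.

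Ribosomal RNA is transcribed in the nucleolus by RNA polymerase I as one long precursor. Small nucleolar RNAs, carried in box C/D and box H/ACA particles, guide its methylation and pseudouridylation, and a large set of assembly factors folds, cuts and exports the 2 subunits. Genes of this set are known as a group that follows cell growth, and many are known targets of the transcription factor Myc.

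The libraries held 85794655 unique molecular identifiers (UMIs, each marking 1 captured RNA molecule) in control and 104978816 in B16-F10. After filtering, 7830 control and 7767 B16-F10 cells remained, and 19 barcodes were shared by the cells of both libraries before doublets were removed. General capillary (gCap) cells were endothelial cells outside the aCap-like, artery-like, vein-like and LEC-like clusters with at least 3 UMIs of Gpihbp1, Kit and Aplnr together. They numbered 4717 in control and 4603 in B16-F10, with a median of 7370 and 8570 UMIs per cell. The 8 gCap markers summed to 11788 and 10176 counts per 1000000 UMIs (CPM), and no marker of that list was at 0. In the same cells 8 melanoma markers summed to 27.3 and 56.2 CPM, 8 macrophage and monocyte markers to 18.7 and 32.4, 6 neutrophil markers to 2.76 and 8.002, 8 mural markers to 35.4 and 63.0, and 6 platelet markers to 21.8 and 28.2. Of the melanoma markers 2 were at 0 in control and 0 in B16-F10, and 6 erythroid markers summed to 1190.1 and 1435 CPM.

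In gCap cells, transcripts of the 36 genes together were higher in the B16-F10 library. They made up 1351 CPM in control (1339 to 1363) and 2224 CPM in B16-F10 (2210 to 2239), a log2 ratio of 0.72 (0.70 to 0.73). Counted per cell, this was a mean of 10.3 UMIs in control and 19.9 in B16-F10, while the mean of all UMIs per cell was 7607 and 8932. Each of the 36 genes had at least 50 UMIs over both libraries, and 36 of 36 were higher beyond counting error, against 29.4% of all 13281 genes compared. Of the 36, 26 were at least 1.5-fold higher and 0 at least 1.5-fold lower, against 9.48% and 10.5% of all genes. Their median log2 ratio was 0.80, while the median of all genes was -0.05. Ranked among all genes, the median member stood at percentile 94.2. The members were chosen with earlier results of these data known, so their place among all genes is no test. Of 137 other genes of the pathway, 36 were at least 1.5-fold higher, with a median log2 ratio of 0.33. A cluster that passed for no vessel type, described below, held 22.3% of the B16-F10 member UMIs. Without this cluster the summed log2 ratio was 0.46 (0.44 to 0.47). There 15 genes were at least 1.5-fold higher, against 7.69% of all genes. Among all gCap cells, leaving out those that held a marker of platelets, mural cells, leukocytes or melanoma gave a summed log2 ratio of 0.65. This left 3092 control and 1641 B16-F10 cells. It thus removed more cells from the B16-F10 library, whose cells also held more UMIs.

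**Figure D1:**
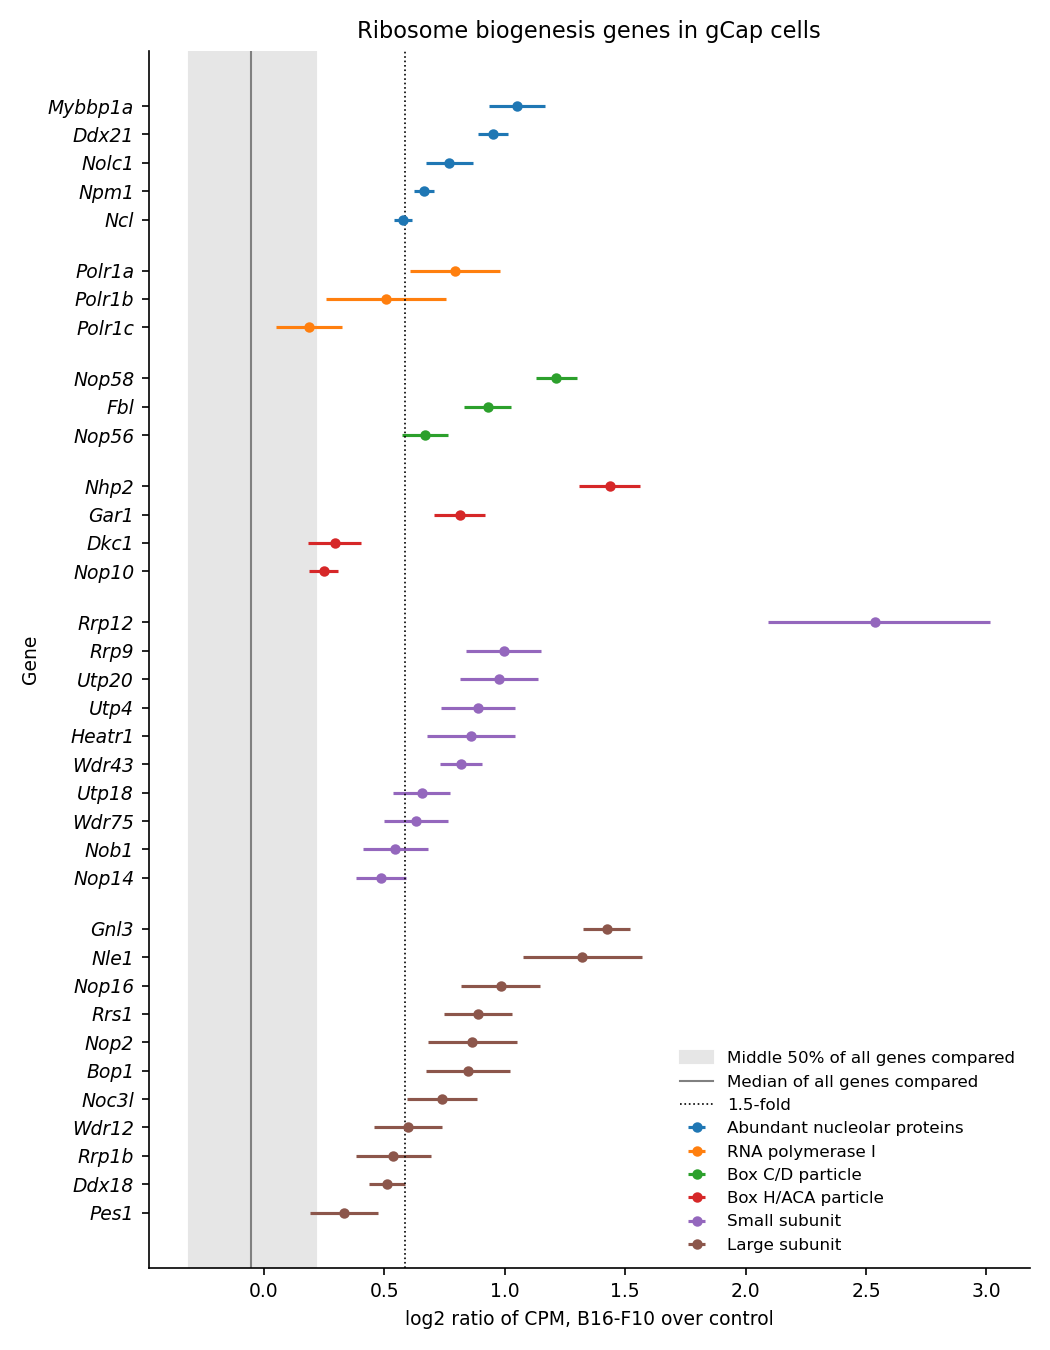
Log2 ratio of CPM, B16-F10 over control, for each gene in gCap cells, with points coloured by role and bars for the 95% counting interval. All 36 points lie right of the median of all genes (-0.05), and Rrp12 stands apart at 2.54.

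The abundant nucleolar proteins included the best counted gene of the set, Ncl, which encodes nucleolin, an RNA-binding protein of the nucleolus. Ncl (ENSMUSG00000026234, GRCm38 chr1:86344719-86359400, minus strand) was counted with 8605 UMIs in control and 14713 in B16-F10, which is 239.8 CPM (235 to 245) and 358 CPM (352 to 364). Its log2 ratio of 0.58 (0.54 to 0.62) was the lowest of this group. The highest was Mybbp1a (ENSMUSG00000040463, chr11:72441355-72451768, plus strand), a nucleolar Myb-binding protein, with 24.3 CPM (22.7 to 25.9) and 50.3 CPM (48.1 to 52.5) and a log2 ratio of 1.05 (0.94 to 1.17). The helicase gene Ddx21 had a log2 ratio of 0.95, Nolc1, which encodes a chaperone of small nucleolar particles, 0.77, and Npm1, which encodes nucleophosmin, 0.67. Ncl and Npm1 gave 32.8% of all member UMIs in control and 30.6% in B16-F10, and without both the summed log2 ratio was 0.77.

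RNA polymerase I had the smallest ratio of the 6 groups. Polr1a (ENSMUSG00000049553, chr6:71909053-71984935, plus strand), the largest subunit, had 351 and 697 UMIs, or 9.78 CPM (8.79 to 10.9) and 16.95 CPM (15.7 to 18.3), and a log2 ratio of 0.79 (0.61 to 0.98). Polr1b, the second-largest subunit, stood at 0.51 (0.26 to 0.76). Polr1c (ENSMUSG00000067148, chr17:46243920-46248054, minus strand), which RNA polymerase I shares with RNA polymerase III, had 21.5 CPM (20.02 to 23.1) and 24.5 CPM (23.03 to 26.1) and the lowest log2 ratio of all 36 genes, 0.19 (0.05 to 0.33). Summed, the 3 subunits had a log2 ratio of 0.42 (0.32 to 0.52).

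The box C/D particle, which carries the guides for methylation of ribosomal RNA, had the highest summed ratio, 0.96 (0.91 to 1.02). Its core protein Nop58 (ENSMUSG00000026020, chr1:59684971-59719044, plus strand) went from 1489 to 3960 UMIs. Its level was 41.5 CPM (39.4 to 43.7) in control and 96.3 CPM (93.3 to 99.4) in B16-F10, and the log2 ratio 1.21 (1.13 to 1.30). Fbl, the methyltransferase fibrillarin, had 0.93. Nop56 (ENSMUSG00000027405, chr2:130274430-130279313, plus strand) had 38.3 CPM (36.3 to 40.4) and 60.8 CPM (58.5 to 63.3), a log2 ratio of 0.67 (0.57 to 0.76).

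The box H/ACA particle, which carries the pseudouridylation guides and whose proteins also belong to telomerase, was uneven. Nhp2 (ENSMUSG00000001056, chr11:51619735-51623714, plus strand) had 676 and 2096 UMIs, or 18.8 CPM (17.4 to 20.3) and 50.98 CPM (48.8 to 53.2), a log2 ratio of 1.44 (1.31 to 1.56). Nop10 (ENSMUSG00000027133, chr2:112261926-112263269, plus strand), a partner in the same particle, had 110.1 CPM (106.7 to 113.6) and 131 CPM (127 to 134), and its log2 ratio was only 0.25 (0.19 to 0.31). Gar1 stood between them at 0.81, and Dkc1, the pseudouridine synthase dyskerin, at 0.29 (0.19 to 0.40). The intervals of Nhp2 and of Gar1 overlapped none of the intervals of the other proteins of the particle.

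Among the small-subunit factors, Rrp12 had the largest ratio of the whole set. Rrp12 (ENSMUSG00000035049, chr19:41862851-41896173, minus strand), a factor of pre-ribosome maturation and export, was counted 47 times in control and 313 times in B16-F10, at 1.31 CPM (0.96 to 1.74) and 7.61 CPM (6.79 to 8.50), a log2 ratio of 2.54 (2.09 to 3.01). It was also the least counted gene of the set in control. Wdr43 (ENSMUSG00000041057, chr17:71615895-71659031, plus strand), a subunit of the complex that binds the precursor first, had the most UMIs of this group, with 43.3 CPM (41.1 to 45.5) and 76.3 CPM (73.6 to 78.97) and a log2 ratio of 0.82 (0.73 to 0.91). Nop14 (ENSMUSG00000036693, chr5:34638536-34660148, minus strand) was lowest, with 33.97 CPM (32.1 to 35.9) and 47.6 CPM (45.6 to 49.8) and a log2 ratio of 0.49 (0.38 to 0.59). Among the 36 genes, the other subunits of that early complex gave 0.89 (Utp4), 0.86 (Heatr1) and 0.63 (Wdr75). Of its subunits outside the 36, Utp15 had 0.40 and Nol11 0.33. Rrp9, a protein of the U3 particle, gave 1.00, Utp20 0.98, Utp18 0.66 and Nob1, the nuclease that trims the small-subunit RNA, 0.55.

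Among the large-subunit factors, Gnl3 (ENSMUSG00000042354, chr14:31012433-31019152, minus strand), the GTPase nucleostemin, had 1162 and 3570 UMIs, or 32.4 CPM (30.5 to 34.3) and 86.8 CPM (84.01 to 89.7), a log2 ratio of 1.42 (1.33 to 1.52). Nle1 followed with 1.32 and Nop16 with 0.98. Ddx18 (ENSMUSG00000001674, chr1:121553835-121567989, minus strand), a helicase, had the most UMIs, with 68.1 CPM (65.5 to 70.9) and 97.1 CPM (94.2 to 100.2) and a log2 ratio of 0.51 (0.44 to 0.58). The lowest was Pes1 (ENSMUSG00000020430, chr11:3963975-3980004, plus strand), with 19.2 CPM (17.8 to 20.7) and 24.2 CPM (22.7 to 25.8) and a log2 ratio of 0.33 (0.19 to 0.48). Pes1 works in one complex with Bop1 and Wdr12, whose log2 ratios were 0.85 and 0.60. Rrs1 gave 0.89, the RNA methyltransferase Nop2 0.87, Noc3l 0.74 and Rrp1b 0.54.

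Because Myc binds the E-box CACGTG, that motif was searched in the promoters of the members. The motif reads alike on both strands, and no other motif was searched. RefSeq promoter sequences of GRCm38.p6, from 250 bases before to 50 bases after the start site, matched 31 of the 36 genes with 34 promoters, and Bop1, Fbl, Npm1, Rrp12 and Rrs1 had no entry. The motif stood in 8 of the 34 (23.5%). It stood in 7.15% of all 32851 promoters, in 9.85% of the 12767 promoters of genes compared in gCap cells and in 17.2% of 134 promoters of other ribosome biogenesis genes. Over the 8 genes with the motif the median ratio in gCap cells was 0.88 on the log2 scale, from 0.33 (Pes1) to 1.32 (Nle1). The 23 matched genes without it had a median of 0.67, from 0.19 (Polr1c) to 1.44 (Nhp2). The 2 ranges overlapped, and Rrp12, the highest of all 36 at 2.54, was among those with no entry. A match is a description of letters and not a binding site. The stretches below are those of the 4 genes with the highest ratio among the 8. Nop2 and Utp18 follow, chosen after their positions were seen, as the only members with the motif before the start site. Each is written 5′ to 3′ in the direction of transcription with the E-box in capitals.
Nle1, chr11:82908355-82908384, minus strand: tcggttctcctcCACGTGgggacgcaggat
Mybbp1a, chr11:72441355-72441376, plus strand: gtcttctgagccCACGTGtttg
Utp20, chr10:88826765-88826789, minus strand: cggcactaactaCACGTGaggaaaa
Utp4, chr8:106893643-106893672, plus strand: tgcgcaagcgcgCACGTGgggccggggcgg
Nop2, chr6:125131811-125131840, plus strand: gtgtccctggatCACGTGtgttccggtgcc
Utp18, chr11:93885769-93885798, minus strand: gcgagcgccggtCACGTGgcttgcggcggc

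The same ratios were taken for other genes of the pathway. Of 138 further genes of RNA polymerase I, subunit assembly, particle assembly and the exosome, 137 could be compared in gCap cells, 103 were higher beyond counting error and 7 lower, and 36 were at least 1.5-fold higher, beside the 29.4% higher beyond counting error and 9.48% at least 1.5-fold higher among all genes. Their median log2 ratio was 0.33, with 0.48 for 52 further large-subunit factors, 0.30 for 50 small-subunit factors and 0.23 for 13 of 14 exosome genes. The highest were the late small-subunit factors Tsr1 (1.74), Pno1 (1.45) and Bysl (1.36), with Ccdc86 (1.44) and Rcl1 (1.30). The lowest were Ttf1 (-0.29), the termination factor of RNA polymerase I, Tex10 (-0.23), Taf1b (-0.22), a subunit of its promoter factor, Ddx55 (-0.16) and Nop53 (-0.11). Ribosomal proteins themselves moved in a narrower range. The 78 cytosolic ribosomal protein genes were all higher beyond counting error with a median log2 ratio of 0.26, but only 1 was at least 1.5-fold higher. The 78 mitochondrial ones had a median of 0.24. Of these, 61 were higher beyond counting error, against 29.4% of all genes, and 5 were lower. At least 1.5-fold higher were 7, a share near the 9.48% of all genes. The 20 S and G2/M phase genes summed to 149 CPM in control and 159 CPM in B16-F10.

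The next comparison asked how the genes behaved in each vessel type. Classes outside gCap are called by their markers: aCap-like are aerocyte capillary cells, LEC-like are lymphatic endothelial cells. In control the summed level differed little, in the order LEC-like 1499 CPM (1390 to 1614), vein-like 1446 (1403 to 1490), gCap 1351 (1339 to 1363), aCap-like 1275 (1256 to 1294) and artery-like 1208 (1153 to 1266). The LEC-like and vein-like levels overlapped, as did the aCap-like and artery-like levels. In B16-F10 the order was gCap 2224 CPM (2210 to 2239), artery-like 1731 (1661 to 1803), aCap-like 1596 (1573 to 1620), vein-like 1576 (1532 to 1620) and LEC-like 1444 (1339 to 1555). The gCap class thus moved from the middle to the top, while the aCap-like and vein-like levels overlapped, as did the vein-like and LEC-like levels. In LEC-like cells the levels of the 2 libraries overlapped as well. The top place of gCap rested on 2 clusters described below, since without both its level in B16-F10 was 1578 CPM (1564 to 1593), under artery-like cells and overlapping aCap-like and vein-like cells.

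**Figure D2:**
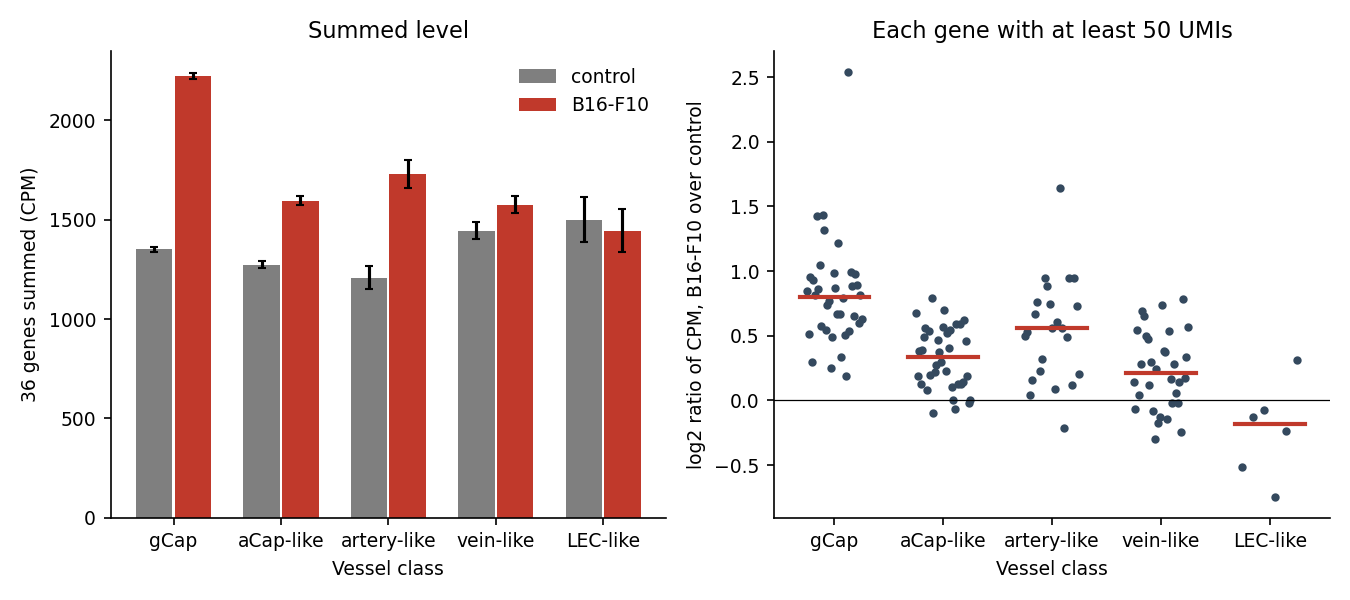
Left, summed CPM of the 36 genes by vessel class and library, with bars from 0 and 95% counting intervals. Right, log2 ratio of each gene with at least 50 UMIs in that class, with a line at the median, which falls from 0.80 in gCap to 0.21 in vein-like and -0.18 in LEC-like cells.

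In aCap-like cells, the flat cells of gas exchange, the summed log2 ratio was 0.32 (0.29 to 0.36) over 1450 control and 966 B16-F10 cells. All 36 genes were compared there, 22 were higher beyond counting error (27.8% of all genes) and 6 were at least 1.5-fold higher (6.55% of all genes). Nhp2 had 414 and 593 UMIs and the highest ratio, 0.79 (0.61 to 0.98), followed by Nop2 at 0.70 and Bop1 at 0.68, while the 3 subunits of RNA polymerase I summed to -0.0039 (-0.19 to 0.19). The low-depth cluster of the class held 610 control cells and 70 B16-F10 cells. Its other cluster held 840 and 896, so the mix of clusters differed between the 2 libraries. Without clusters whose median lay under 6000 UMIs, the summed ratio fell to 0.15. In these cells the cytosolic ribosomal proteins had a median log2 ratio of 0.49, above that of the 36 genes.

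Artery-like cells numbered 191 and 143, and 23 genes had enough UMIs. Of these 15 were higher beyond counting error (16.1% of all genes), 10 were at least 1.5-fold higher (9.54% of all genes), and the summed log2 ratio was 0.52 (0.43 to 0.61). Nop58 rose from 45 to 129 UMIs. Its level was 31.1 CPM (22.7 to 41.6) in control and 96.9 CPM (80.9 to 115) in B16-F10, with 1.64 (1.14 to 2.16) as log2 ratio. Polr1c, at -0.21, had an interval that spanned 0.

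Vein-like cells numbered 281 and 284, and 32 genes were compared. Only 7 were higher beyond counting error (12.1% of all genes), 1 was lower (14.5% of all genes) and 4 were at least 1.5-fold higher (5.28% of all genes), so the shares lay nearer to those of all genes than in gCap. The summed log2 ratio was 0.12 (0.07 to 0.18). Utp4 (0.79), Nop16 (0.73), Gar1 (0.69) and Gnl3 (0.65) were the 4 genes past 1.5-fold, and Npm1 was the gene that was lower, with 888 and 866 UMIs and a log2 ratio of -0.14 (-0.28 to -0.01).

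LEC-like cells numbered 57 and 51 and gave 6 comparable genes. None was higher beyond counting error (0 of 6, 9.89% of all genes), and 1 was lower (10.3% of all genes), Nop10, with 57 and 35 UMIs and a log2 ratio of -0.74 (-1.39 to -0.11). The summed log2 ratio of all 36 genes was -0.05 (-0.21 to 0.10), so no difference was detectable at this depth. Whether the classes differ from each other in their ratios was not tested.

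Within gCap, the level of the 36 genes was not shared evenly over the cells. Cells were clustered without the 36 genes, the other pathway genes and Myc. In the cluster led by Csf2 and Sox9, the summed level reached 7563 CPM (7460 to 7668) over 246 B16-F10 cells, and it was 2272 CPM (1993 to 2578) over the 12 control cells found there. This cluster passed for no vessel type, with 1 of the 8 gCap markers, and its cells count as gCap here as unnamed endothelial cells past the gate. It held 345 B16-F10 cells in all, of which 246 passed the gate. These 246 cells were 5.34% of the gCap cells of their library and held 22.3% of its member UMIs. In the cluster led by Lalba and Tmem252 the level was 2648 CPM (2615 to 2680) over 1033 B16-F10 cells and 1756 CPM (1660 to 1857) over 88 control cells. Both clusters came mostly from the B16-F10 library, so a cell state and that library cannot be told apart in them. In the other 6 clusters, with 4617 and 3324 cells, the level was 1340.3 CPM (1328 to 1353) in control and 1578 CPM (1564 to 1593) in B16-F10.

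**Figure D3:**
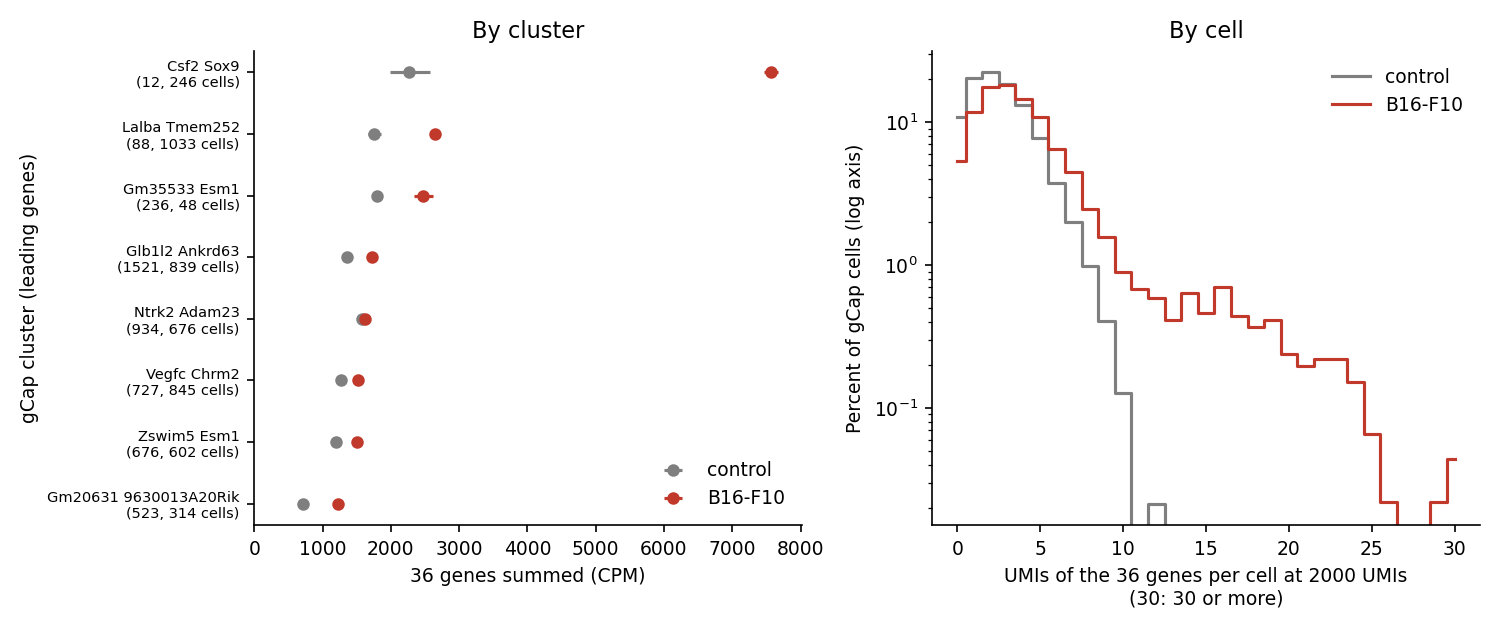
Left, summed CPM of the 36 genes in each gCap cluster (leading genes and cells in control and B16-F10 on the axis) with 95% counting intervals. Right, share of gCap cells by UMIs of the 36 genes after thinning each cell to 2000 UMIs, on a log axis, where the B16-F10 line extends beyond the highest control cells.

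Compared with the other 6 clusters of the same library, 36 of 36 genes were higher beyond counting error in the Csf2 and Sox9 cluster (23.3% of all genes in that direction), with a median log2 difference of 2.29. The range was 0.19 for Nop10, with 128.6 and 146.5 CPM, to 3.81 for Rrp12, with 2.86 and 40.1 CPM. Gnl3 stood at 43.8 and 419 CPM, Nhp2 at 28.9 and 252 CPM, Nop58 at 53.02 and 417 CPM and Ncl at 257 and 1334 CPM. These values describe a cluster and are no test.

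The size of the gCap result therefore depended on these 2 clusters, which were singled out after the data were seen. Without the Csf2 and Sox9 cluster the summed log2 ratio was 0.46 (0.44 to 0.47) and 15 genes were at least 1.5-fold higher (7.69% of all genes). Without both clusters it was 0.24 (0.22 to 0.25). There 30 of 36 genes were still higher beyond counting error (26.7% of all genes), but 3 were at least 1.5-fold higher (5.35% of all genes): Rrp12 at 1.12 (0.59 to 1.68), Nhp2 at 0.67 (0.52 to 0.82) and Nle1 at 0.65 (0.36 to 0.94). Polr1c and Dkc1 came to -0.025 (-0.18 to 0.13) and -0.01 (-0.14 to 0.12), and Ncl to 0.11 (0.06 to 0.15). Nop10 moved least of the 36, to 0.23 from 0.25 in all gCap cells. The clusters pooled without both were unlike, with summed log2 ratios from 0.04 (0.0017 to 0.08) to 0.77 (0.68 to 0.85). The lowest was the cluster led by Ntrk2 and Adam23, where 0 of 35 genes were at least 1.5-fold higher. The highest was a low-depth cluster led by Gm20631, with 17 of 27. The pool also kept an unnamed cluster led by Gm35533 and Esm1, mostly of control cells (236 against 48). Its ratio was 0.46 (0.36 to 0.55).

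**Figure D4:**
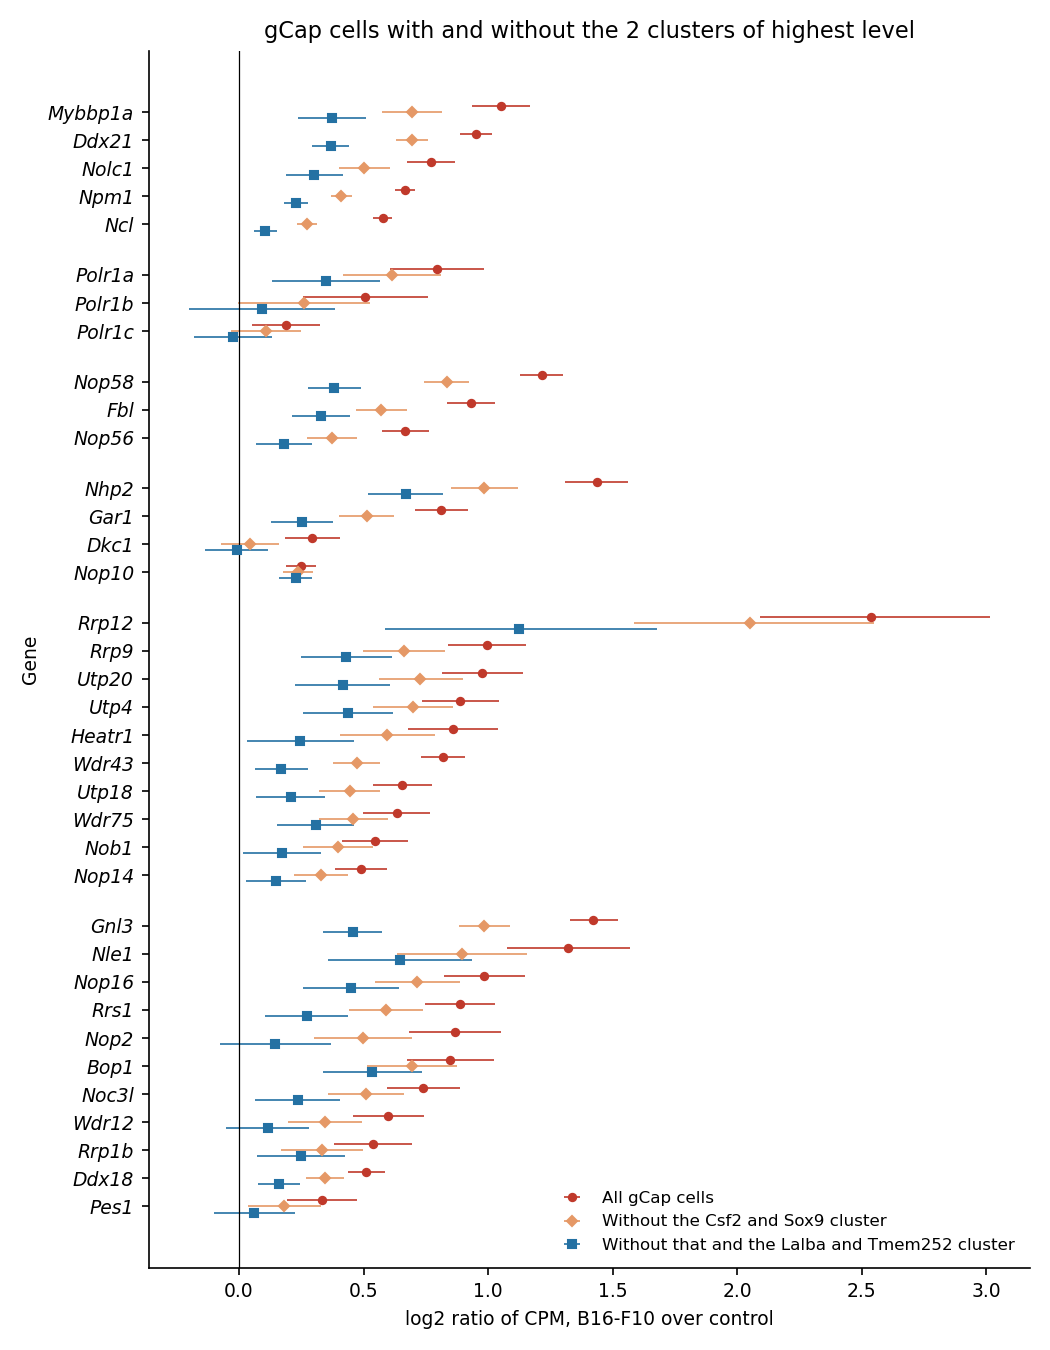
Log2 ratio of CPM, B16-F10 over control, with 95% counting intervals, for each gene in all gCap cells, without the Csf2 and Sox9 cluster, and without that and the Lalba and Tmem252 cluster. The median falls from 0.80 to 0.51 and 0.25.

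The same unevenness showed in single cells thinned to 2000 UMIs, which left out 29 control and 19 B16-F10 gCap cells. The mean was 2.60 UMIs of the 36 genes per control cell (SD 1.85 over 4688 cells) and 4.22 per B16-F10 cell (SD 3.79 over 4584 cells). The variance was 1.32 times the mean in control and 3.41 times in B16-F10. The median moved by 1 UMI, from 2 to 3, while the 95th percentile moved from 6 to 12. The share of cells above 6 UMIs was 3.52% in control (3.01 to 4.09) and 15.2% in B16-F10 (14.2 to 16.3), and 175 and 297 cells stood at 6. Cells with 0 UMIs fell from 10.9% to 5.37%. In aCap-like cells the share above 6 UMIs was 1.74% (1.13 to 2.56) and 4.58% (3.35 to 6.098), and in vein-like cells 4.27% (2.23 to 7.34) and 4.93% (2.72 to 8.13). In artery-like cells, whose 95th percentile in control was 5 UMIs, the share above 5 was 4.84% (2.24 to 8.99) and 15.6% (10.04 to 22.7).

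The last comparison asked how the genes stood against detection of Myc, the transcription factor, within gCap cells. For Myc (ENSMUSG00000022346) 23 UMIs were found in control and 1298 in B16-F10, or 0.64 and 31.6 CPM, a log2 ratio of 5.62 (5.03 to 6.29), the 17th highest of all genes compared. At least 1 Myc UMI was found in 17 of 4717 control cells (0.36%, 0.21 to 0.58) and in 453 of 4603 B16-F10 cells (9.84%, 8.996 to 10.7). At 2000 UMIs per cell the shares were 0.064% (0.013 to 0.19) and 3.80% (3.26 to 4.39). In aCap-like cells Myc was found in 0 of 1450 control cells, which by a limit of 3 counts allows up to 0.21% of cells with a UMI, and in 12 of 966 B16-F10 cells (1.24%, 0.64 to 2.16), at medians of 9140.5 and 11356.5 UMIs. In artery-like cells the share went from 5 of 191 (2.62%, 0.86 to 6.003) to 12 of 143 (8.39%, 4.41 to 14.2), and in vein-like cells from 6 of 281 (2.14%, 0.79 to 4.59) to 20 of 284 (7.04%, 4.35 to 10.7). In LEC-like cells it was 4 of 57 (7.02%) and 3 of 51 (5.88%). Free RNA, at its estimated share, would supply 0.46 CPM of Myc in B16-F10 gCap cells.

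In the B16-F10 library, the 36 genes summed to 5457 CPM in gCap cells with a Myc UMI and to 1794 CPM in those without, a log2 difference of 1.605 (1.58 to 1.63). All 36 were higher beyond counting error in cells with Myc (22.7% of all genes), 35 at least 1.5-fold (13% of all genes), and the median difference was 1.62. The difference was largest for Rrp12 (2.60), Gnl3 (2.35), Nop2 (2.22), Nhp2 (2.20), Nop58 (2.11) and Nle1 (2.11), and smallest for Nop10 (0.14, 0.02 to 0.26) and Polr1c (0.61, 0.36 to 0.85). The other pathway genes had a median of 0.79, the cytosolic ribosomal proteins 0.42 and the mitochondrial ribosomal proteins 0.09. Cells of 1 library are not replicates, and cells with a Myc UMI were also deeper, with a median of 10217 UMIs against 8393.5.

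At equal depth the order was the same. At 2000 UMIs per cell, the level was 1961 CPM (1932 to 1990.4) in the 4410 cells without Myc, 5528 CPM (5241 to 5826) in 126 cells with 1 Myc UMI, 6543 CPM (5957 to 7170.4) in 35 cells with 2 and 7346 CPM (6341 to 8465) in 13 cells with 3 or more. The intervals of the groups with 2 and with 3 or more overlapped. In each of 5 ranges of depth, cells with Myc had the higher level, with log2 differences of 1.59, 1.501, 1.32, 1.65 and 1.69 from the shallowest to the deepest. The shallowest range held only 7 cells with Myc.

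**Figure D5:**
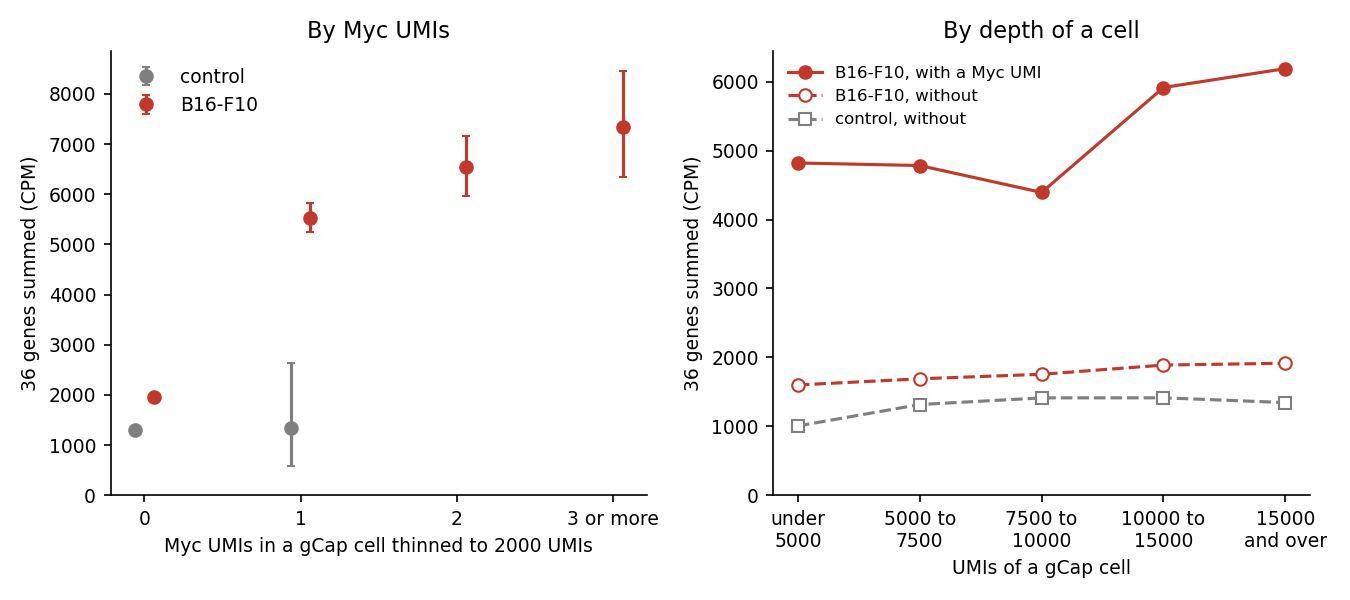
Left, summed CPM of the 36 genes by Myc UMIs in gCap cells at 2000 UMIs, with 95% counting intervals (control has 3 cells with 1 and 0 with more). Right, summed CPM by depth of a cell, with and without a Myc UMI, where the B16-F10 cells with Myc lie above both other lines in every range.

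Detection of Myc followed the clusters. Myc was found in 196 of 246 cells (79.7%) of the Csf2 and Sox9 cluster, in 208 of 1033 (20.1%) of the Lalba and Tmem252 cluster and in 49 of 3324 (1.47%) in the other clusters of the B16-F10 library. Within each of these, the difference between cells with and without Myc was smaller than over all gCap cells: 0.31 (0.25 to 0.37), 0.63 (0.59 to 0.67) and 0.36 (0.26 to 0.45). In the Csf2 and Sox9 cluster, the 50 cells without a Myc UMI had 6274 CPM of the 36 genes, above the 2012 CPM of the 49 cells with Myc in the other clusters.

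In control, the 17 gCap cells with Myc had 1753 CPM of the 36 genes and the cells without it 1349.6 CPM, a log2 difference of 0.38 (0.20 to 0.55). Without the 2 clusters named above, 12 of these cells remained, and the difference of 0.23 (-0.0013 to 0.45) had an interval that spanned 0. Over 35 comparable genes, 2 were higher beyond counting error (5.55% of all genes), Npm1 at 0.74 (0.31 to 1.13) and Gnl3 at 1.28 (0.32 to 2.09), and 0 were lower (4.38% of all genes). Nop2 had 0 UMIs in these 17 cells, which by a limit of 3 counts allows up to 19.5 CPM. At 2000 UMIs only 3 control cells kept a Myc UMI, too few to be read. In the ranges of depth used above, the control differences were uneven. From the shallowest to the deepest they were -0.21 (-1.52 to 0.84), 0.26 (-0.45 to 0.89), 0.47 (0.21 to 0.71), 0.0052 (-0.36 to 0.35) and 0.85 (0.36 to 1.30). They rest on 2, 2, 8, 4 and 1 cells with Myc.

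The 36 genes were also higher in cells where no Myc was found. Among gCap cells without a Myc UMI, 4700 in control and 4150 in B16-F10, the summed log2 ratio was 0.41 (0.39 to 0.43), below the 0.72 over all gCap cells. Of the 36 genes, 33 were higher beyond counting error (28.6% of all genes) and 12 at least 1.5-fold (7.26% of all genes). The highest were Rrp12 at 1.89 (1.41 to 2.39), Nhp2 at 0.93 (0.80 to 1.07) and Gnl3 at 0.86 (0.76 to 0.97). Polr1c (0.11), Polr1b (0.14) and Dkc1 (0.04) did not pass. A cell without a Myc UMI may still hold Myc RNA that was not captured. Among cells with Myc the summed ratio was 1.64 (1.47 to 1.82), which rests on 270 member UMIs in the 17 control cells.

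Free RNA in the droplets was estimated from transcripts of other cells. The estimate from lung epithelial transcripts was 1.45% of UMIs in control gCap cells and 2.05% in B16-F10, which would supply 18.1 and 39.9 CPM of the 36 genes. Estimated from pigment genes, the share in B16-F10 was 3.97%, which would supply 77.1 CPM. In control the pigment estimate was 69.2%, or 859 CPM of the 36 genes, but it rests on 35 pigment UMIs in gCap cells and 8 in near-empty barcodes, too few to be read.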

How the data were processed

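The members, gene lists and comparisons were chosen with earlier results of these data known. The authors deposited raw UMI counts per gene and barcode for all barcodes, unfiltered and not normalized, and the submitters' processing notes name Cell Ranger 7.2.0, Seurat 4.4.0 and mm10. The study's methods name another Cell Ranger version, and the labels name a v2 kit, although the matrices list more barcodes (1597090 and 1779952) than that kit uses. Whether intronic reads were counted is not given in the sources used here.

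A cell had to hold 1000 to 5000 genes and less than 20% mitochondrial UMIs, which left 8394 in control and 8321 in B16-F10. Scrublet in scanpy 1.11.5 removed 564 and 554 doublets, at 0.8% per 1000 cells. Cells were clustered with leidenalg 0.10.2 at resolution 0.8 over 2956 variable genes, leaving out the members, other pathway genes, Myc and the study's markers of reactive capillary and interferon-responding cells, which gave 22 clusters named from marker lists. Clusters with markers of endothelial and other cells were called mixed and left out of all classes.

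For each class and library UMIs were added up and given per 1000000. Where cells were split by Myc, its own UMIs were left out of the totals. Ratios have no pseudocount and carry exact conditional binomial intervals, levels exact Poisson and shares Clopper-Pearson intervals, all at 95%, while limits for a count of 0 use 3 counts. Called means at least 1.5-fold, or an interval wholly on one side of 0, for genes with at least 50 UMIs. The ratio was tested on simulated Poisson counts. The intervals assume such counts, so this test cannot show that they hold for these cells. Free RNA was scaled from barcodes with 1 to 100 UMIs. Every member is named. Full values are given for the member of each role with the most UMIs and those with the highest and lowest ratio, and of the other pathway genes the 5 highest and 5 lowest are named.

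Alternatives changed the cells summed, the gate, the limits, depth, scaling and clustering. Those without low-depth clusters, without 1 or both B16-F10-rich clusters and with gCap-like clusters only were added after the data were seen.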

Additional observations from a re-analysis of the deposited data

Results flagged for a closer look

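Npm1 was higher in B16-F10 in 3 vessel classes and lower in another. Its log2 ratio was 0.67 (0.62 to 0.71) in gCap, 0.40 (0.31 to 0.49) in aCap-like and 0.56 (0.32 to 0.80) in artery-like cells, against -0.14 (-0.28 to -0.01) in vein-like cells. Nop10 went the same way in gCap (0.25, 0.19 to 0.31), aCap-like (0.37, 0.26 to 0.49) and artery-like cells (0.56, 0.24 to 0.89), against -0.74 (-1.39 to -0.11) in LEC-like cells. With 1 library per group, the difference between classes was not tested for either gene. Of 36 genes over 5 classes, these 2 had counting intervals on opposite sides of 0. The share of all genes with such opposite intervals is not given, so this count is not read as a result about the set. Among all genes 14.5% were lower beyond counting error in vein-like and 10.3% in LEC-like cells, beside 1 of 32 and 1 of 6 members compared there.

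Signal of the 36 genes also stood outside the cells compared. In barcodes with 1 to 100 UMIs, which mostly hold free RNA, they summed to 1242 CPM in control and 1943 CPM in B16-F10. In 78 B16-F10 cells outside the endothelial clusters with at least 10 UMIs of pigment genes, a limit chosen after the data were seen, they summed to 4810.4 CPM (4663 to 4961). Npm1 gave 1713 CPM of this and Ncl 1101 CPM. Against gCap cells of that library, the median log2 ratio of the 36 genes was -0.22, beside -1.45 for all genes compared. The 36 genes summed had a log2 ratio of 1.11 (1.07 to 1.16).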

How the results depend on the processing

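No paired analysis was possible because a group holds only 1 library. Over 49 results and 933 alternatives, 706 values stayed within the counting interval of the reported value (counts within 1.5 times), 225 moved beyond it and 2 changed sign. The main limit is that counting error is the only error known.

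The summed log2 ratio in gCap (0.72) was 0.68 over all endothelial cells, 0.65 over every cell past the gate, 0.65 at a gate of 5 UMIs, 0.70 with cells thinned to 2000 UMIs, 0.77 centred on all genes, 0.74 without mitochondrial and ribosomal protein UMIs, 0.65 without cells holding markers of other cell types, 0.70 without cells holding S and G2/M UMIs, 0.77 without Ncl and Npm1, 0.70 without clusters of median under 6000 UMIs and 0.64 without the Lalba and Tmem252 cluster. It was lower wherever the Csf2 and Sox9 cluster left the class. In gCap-like clusters without the gate it was 0.48, the median 0.52 and the count past 1.5-fold 16, in their gated cells 0.48, 0.52 and 16, and with at least 500 genes per cell 0.49, 0.56 and 17. In that last setting 206 of the 258 cells of the cluster that had passed the gate, over both libraries, fell outside gCap. Without both clusters the values were 0.24, 0.25 and 3, and Polr1c (-0.025) and Dkc1 (-0.0099) changed sign, with intervals that span 0.

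The difference in Myc detection (9.48 points) was 8.39 past the gate in any cluster, 5.63 without the gate, 5.65 in gated gCap-like clusters, 6.28 with at least 500 genes, 3.73 thinned, 7.96 without cells holding other markers, 7.15 without S and G2/M cells, 7.47 in cells of 6000 to 10000 UMIs and 1.21 without both clusters. The difference of the 36 genes by Myc detection in B16-F10 (1.605) was, in the same order, 1.52, 0.95, 0.94, 1.09, 1.58, 1.57, 1.76, 1.37 and 0.36. It was 1.65 over all endothelial cells, 1.497 at a gate of 5 UMIs, 1.55 with doublets kept and 1.495 with no upper limit of genes. In control (0.38) it was 0.69 with no upper limit, 0.035 thinned and 0.56 without cells holding other markers.

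In cells without Myc the summed ratio (0.41) was 0.39 past the gate in any cluster, 0.38 with at least 500 genes, 0.59 thinned, where cells lose their Myc UMI, 0.39 without cells holding other markers, 0.33 in cells of 6000 to 10000 UMIs and 0.23 without both clusters. The artery-like sum (0.52) was 0.43 with at least 500 genes, 0.38 with no upper limit and 0.39 thinned. The aCap-like sum (0.32) was 0.41 thinned and 0.15 without low-depth clusters, and the vein-like sum (0.12) was 0.19 with doublets kept. Beyond the loss of the named clusters, the cause of these shifts was not tested.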
